A study of Mus musculus with 18 samples.

Results

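DDX6 is a DEAD box RNA helicase of P-bodies that joins the CCR4-NOT deadenylase, and with it microRNA (miRNA) silencing, to the decapping machinery and to repression of translation. In a sucrose gradient, mRNAs separate by the number of ribosomes they carry. The low polysome is the part in which an mRNA carries only a few ribosomes, which is typical of short coding sequences and of mRNAs that are poorly initiated. Some long noncoding RNAs (lncRNAs) are also found there.

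The comparison described here was between *Ddx6* knockout (KO) and wild type (WT) mouse embryonic stem cells (ESCs), in RNA from the low polysome, which held 2 to 4 ribosomes per RNA. It rested on 6 libraries, 3 KO and 3 WT, of the 18 in the series, whose other 12 libraries were the monosome and the high polysome (4 or more ribosomes) of the same 6 gradients. Testing was limited to the 12705 genes, of 51467 in the table, that reached 3 CPM (counts scaled to 1e+06 per library) in any 3 libraries of the series. The cells were V6.5 ESCs grown in serum, LIF and 2i (PD0325901 and CHIR99021), conditions shared by KO and WT, and were treated with 100 µg/ml cycloheximide for 2 min before lysis and a 10-50% sucrose gradient. The KO arm came from 2 CRISPR-Cas9 clones, with 1 gradient from clone 1 (KO gradient 1) and 2 from clone 2 (KO gradients 2 and 3). The 3 WT gradients (1 to 3) came from wild type cells. The labels did not say whether gradients of the same clone came from separate cultures, so p-values measured the spread between these libraries. The clones carried an insertion in one and a large deletion in the other, and any difference between a clone and its parent line other than *Ddx6* would be part of the KO difference.

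RNA was read from its 3′ end (QuantSeq 3′ FWD), so that each read stood for 1 transcript end and CPM compares a gene between libraries rather than genes of different length. CPM for single genes were scaled by the trimmed mean of M-values (TMM), which sets the bulk of genes to the same level in every library. The values were therefore shares of the low polysome RNA, and fewer mRNAs of a gene in the cell and fewer of its mRNAs in this fraction cannot be told apart. Unless stated otherwise, values are CPM in the order gradient 1, 2 and 3, differences are KO minus WT on the log2 scale with their standard error (SE), and adjusted p is from limma with the Benjamini-Hochberg adjustment over all 12705 genes. A gene is said to have risen or fallen where that p was under 0.05. Over all genes tested 23.4% rose and 24.3% fell, and the count of every list is to be read beside these shares.

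The low polysome libraries held 7043953 to 11474550 counts, and their 10 most abundant genes took 4.64 to 5.53% of them. KO and WT separated along the first principal component, which carried 71.4% of the variance. Along the second, which carried 16%, WT gradient 3 and KO gradient 2 lay apart from the other libraries of their genotype. A fit without these 2 gradients (the 4-gradient fit, chosen after seeing the data) called 2286 genes raised and 2472 lowered, and its counts are given beside each list in which a count of 4 or more moved by over 1.5 times, as are those of a fit from which the trend with coding length was taken out (the length-adjusted fit). ESC markers (*Pou5f1*, *Sox2*, *Nanog*, *Zfp42*, *Klf4* and *Esrrb*) summed to 1338-1521 CPM of the library total in WT and 1592-1841 CPM in KO. Markers of feeder fibroblasts summed to 7.33-10.506 CPM in WT and 6.19-8.93 CPM in KO, with *Col3a1* and *Postn* at 0 in all 6 libraries. The summed markers of primitive endoderm (3.22-4.67 CPM in WT and 2.98-5.16 CPM in KO) and of mesoderm (4.79-6.30 and 4.27-6.19 CPM) overlapped between the genotypes, as did those of neural ectoderm (26.5-28.8 and 25.8-41.5 CPM, nearly all of it *Sox1*).

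The targeted gene was lower in every KO library. *Ddx6* stood at 160, 194 and 212 CPM in WT and at 82.7, 20.7 and 17.7 CPM in KO, a difference of -2.62 (SE 0.47, limma adjusted p = 0.000117). The clone 1 library kept more of it than both clone 2 libraries. A 3′ read can lie outside the edited part of the gene, so this level says nothing of the protein. By western blot, the authors reported no DDX6 protein in either clone.

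In the low polysome, 6065 genes (47.7%) differed between KO and WT, 2974 higher (23.4%) and 3091 lower (24.3%) in KO. The genes that moved by more than 1 on the log2 scale were 1173 raised (9.23%) and 1143 lowered (9.0%). Without any model, all 3 KO libraries lay on one side of all 3 WT libraries for 6519 genes (51.3%), above them for 3208 (25.2%) and below them for 3311 (26.1%). The median difference over all genes was -0.03, with a median SE of 0.19. Of the 6065 calls, 4061 (67.0%) stood in each of the 6 fits that left out 1 gradient. For comparison, 2357 genes (18.6%) rose and 2548 (20.1%) fell in the monosome, and 3215 (25.3%) rose and 2687 (21.1%) fell in the high polysome.

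*Rhox6*, a homeobox gene of the X-linked *Rhox* cluster that is expressed in placenta and germ cells, rose most among the genes with at least 20 CPM on average whose groups did not overlap (chrX:37826910-37829857, mm10, plus strand). It stood at 2.21, 3.10 and 1.65 CPM in WT and at 153, 152 and 147 CPM in KO. The groups were far apart and the KO libraries close together, with a difference of 6.04 (SE 0.29, limma adjusted p = 1.35e-11). Its neighbour *Rhox9* (chrX:37899097-37901770, minus strand) went from 1.23, 1.27 and 1.65 CPM to 53, 55.9 and 50.7 CPM, a difference of 5.21 (SE 0.33). *Gm364*, also on the X chromosome, went from 6.25, 7.60 and 3.42 CPM to 165, 141 and 219 CPM. *Rhox* genes are similar in sequence and only uniquely mapped reads were counted, so the share of each member is uncertain.

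Among the other genes of the 10 most raised, each KO library was many times above each WT library. *Peg10*, an imprinted retrotransposon-derived gene needed for the placenta, went from 3.31, 4.22 and 3.17 CPM to 117, 120 and 105 CPM (difference 4.99, SE 0.25). *Trh*, the precursor of thyrotropin-releasing hormone, went from 8.70, 5.91 and 9.01 CPM to 122, 215 and 176 CPM (4.40, SE 0.31). *Krt18*, a type I keratin of simple epithelia, went from 1.96, 2.11 and 1.65 CPM to 48.2, 45.3 and 32 CPM (4.38, SE 0.44). The remaining members were the adhesion receptor *Adgrg1*, the lysosomal glycoprotein *Gpnmb*, the keratinocyte differentiation gene *Krtdap* and the tetraspan membrane protein *Emp1*. *Emp1* was the most abundant of these, at 36, 35.5 and 27.7 CPM in WT and 548, 371 and 438 CPM in KO (3.76, SE 0.19). *Peg10*, *Trh*, *Gpnmb* and *Emp1* lie on chromosome 6, whose genes were higher as a group in KO (below).

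The largest falls were in genes of several functions. *Smtnl1*, a smoothelin-like regulator of muscle contraction (chr2:84811176-84822652, minus strand), went from 76.6, 67.9 and 58.0 CPM in WT to 5.38, 5.18 and 3.59 CPM in KO, a difference of -3.88 (SE 0.23, limma adjusted p = 9.58e-11). *H2-Eb1*, a class II histocompatibility chain, went from 106, 88.2 and 98.8 CPM to 10.6, 5.18 and 6.40 CPM (-3.78, SE 0.26). *Upp1*, uridine phosphorylase, was the most abundant of the 10, with 498, 436 and 634 CPM in WT and 63.4, 59.9 and 38.6 CPM in KO (-3.31, SE 0.25). In all of these the groups were separated by a wide gap.

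*Chac1*, a glutathione-degrading enzyme of the stress response, fell by 2.70 on the log2 scale. *Fgf3*, a growth factor, and *Hrk*, an activator of apoptosis, each fell by 2.68, and *Gng2*, a G protein gamma subunit, by 2.77. The lncRNA *Gm26829* fell from 37.9, 35.3 and 33.0 CPM to 5.51, 5.18 and 5.52 CPM. The pseudogene *2210409E12Rik* and *Ly6g6e*, a surface protein gene, completed the set. *Ly6g6e* varied within WT (145, 110 and 23.6 CPM) and within KO (20.1, 5.18 and 12.7 CPM), and WT gradient 3 lay only just above the KO values.

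**Figure D1:**
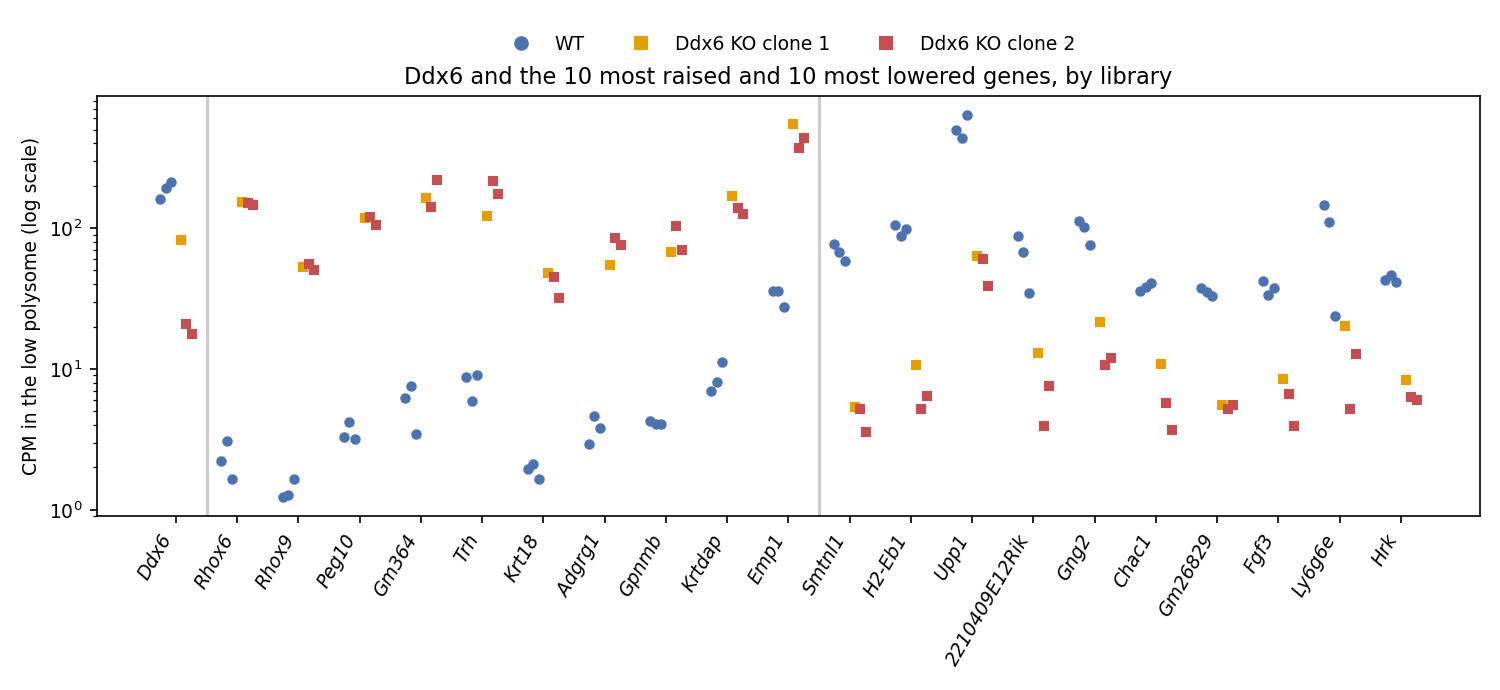
CPM in each of the 6 low polysome libraries, on a log scale, for *Ddx6* and the 10 most raised and 10 most lowered genes; each point is 1 library, circles WT and squares KO, with clone 1 and clone 2 in different colours. The 3 KO points of *Rhox6* lie between 147 and 153 CPM against 1.65 to 3.10 CPM in WT, and for *Ddx6* the clone 1 point (82.7 CPM) lies between the WT points and those of clone 2.

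Ranked by the change in CPM, the largest gains were in mRNAs of membrane proteins and beta-actin. *Cd63*, a tetraspanin of late endosomes, gained most, from 4672, 4053 and 4426 CPM to 7224, 11752 and 8673 CPM (1.04, SE 0.19). *Actb*, cytoplasmic beta-actin, went from 1856, 1642 and 2253 CPM to 4447, 6689 and 4340.4 CPM (1.41, SE 0.18), *Lamp1*, a lysosomal membrane protein, rose by 1.04 (SE 0.15), and *Slc2a3*, the glucose transporter GLUT3 on chromosome 6, rose by 1.89 (SE 0.13). The largest losses were in *Gpx1*, a glutathione peroxidase (7695, 7829 and 7173 CPM in WT and 4629, 4832 and 4704 CPM in KO), in the respiratory chain subunit gene *Cox6c*, in the ribosomal protein gene *Rps14* and in *Igfbp2*, which binds insulin-like growth factors. *Igfbp2* went from 3279.5, 2610.4 and 2898 CPM to 1172, 1346 and 1045 CPM (-1.30, SE 0.21). No library of one genotype overlapped the other in any of these 8 genes.

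Protein-coding genes of chromosome 6 were higher in KO as a group, in all 3 KO libraries and so in both clones. Their median difference over 562 genes was 0.60, a ratio of 1.52, and 311 (55.3%) rose while 48 (8.54%) fell, against 23.4% and 24.3% over all genes. Relative to the WT mean, the median stood at 0.68 in the clone 1 library and at 0.52 and 0.54 in the clone 2 libraries, and between -0.00 and 0.03 in the WT libraries. It was 0.59 in the monosome and 0.54 in the high polysome. In each of 10 windows of 15 Mb along the chromosome the median was between 0.38 and 0.79. The other autosomes and the X chromosome, 19 in all, had medians between -0.12 and 0.11. The exact permutation test of the chromosome's level over the 6 libraries gave p = 0.1, the smallest that 3 against 3 allows. Copy number was not measured, and the part of the chromosome in the results was not tested. For a named gene of chromosome 6, the difference less the chromosome's median is given where it turns the direction or moves the value by over 1.5 times, as for the glycolytic enzyme gene *Tpi1* (0.86 of a total of 1.46).

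**Figure D2:**
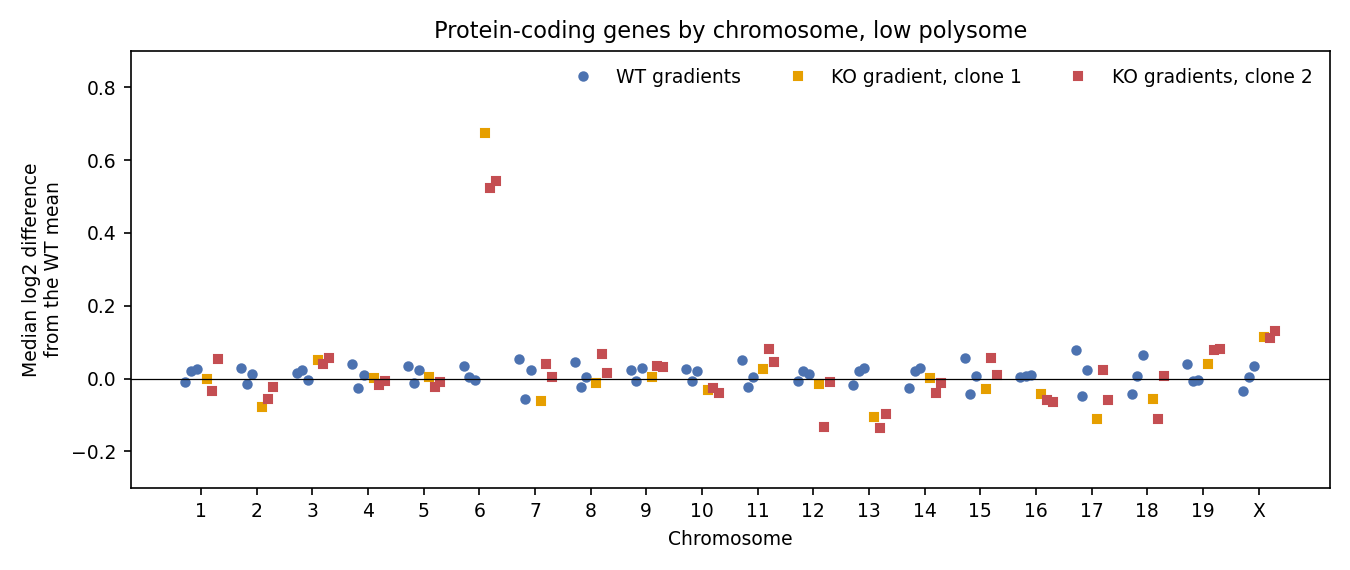
Median log2 difference from the WT mean of the protein-coding genes of each chromosome, in each low polysome library (circles WT, squares KO by clone). On chromosome 6 the KO squares lie at 0.52 to 0.68 and the WT circles at -0.00 to 0.03.

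Of 4 tested genes of the Y chromosome, 3 had no counts in clone 2. *Ddx3y*, an RNA helicase gene, had 56, 58 and 93 counts in the WT libraries, 130 counts in the clone 1 library and 0 in both clone 2 libraries. *Uty* (37, 33 and 62 counts in WT) and *Eif2s3y* (14, 18 and 18) were likewise at 36 and 75 counts in clone 1 and at 0 in clone 2. The fourth, *Gm47283*, stood at 107.6, 87.6 and 121 CPM in WT and at 85.8, 94.2 and 73.0 CPM in KO, with no such gap between the clones, and did not pass (-0.32). A count of 0 allowed up to 0.387 CPM of the library total in KO gradient 2 and 0.261 CPM in KO gradient 3, for counting error only. With chromosomes 6 and Y left out, a fit chosen after seeing the data, 2720 genes rose and 2912 fell.

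Genes of the trophoblast, the outer lineage of the blastocyst, rose together. Of 10 tested, 9 rose (90%) and none fell, where 23.4% and 24.3% did over all genes. The median difference was 4.04 against -0.03 over all genes (2.87 in the monosome and 3.88 in the high polysome). Members near 0 in WT, such as *Krt7* and *Plac1*, could pass the expression limit through KO alone. Members low in both genotypes were not tested, so this count and median are partly set by the limit. The keratin pair *Krt8* and *Krt18*, which form the filaments of simple epithelia, rose together with *Rhox6* and *Rhox9*. *Krt8* went from 0.368, 0.845 and 0.761 CPM to 24.7, 19.6 and 21.9 CPM (5.02, SE 0.49), and *Krt7* from 0.490, 0.282 and 0.381 CPM to 8.40, 8.73 and 5.61 CPM. *Plac1*, a placental gene, had at most 3 counts in each WT library and 12.9, 4.50 and 5.35 CPM in KO.

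*Tead4*, *Ascl2* and *Tfap2c*, transcription factors of the lineage, rose less than the keratins, *Rhox6* and *Rhox9*. *Tead4* (chromosome 6) rose by 1.13 (SE 0.17, or 0.53 above the chromosome's median), *Ascl2* by 0.81 and *Tfap2c* by 0.46. *Ascl2* lost its call without WT gradient 2 (0.68, limma adjusted p = 0.0537), and *Tfap2c* without any 1 gradient other than KO gradient 1, with the smallest value (0.26) without KO gradient 2. *Rhox5* did not pass (48.6, 58.4 and 61.5 CPM in WT and 74.2, 54.7 and 50.6 CPM in KO). *Cdx2*, which defines the lineage, was below the expression limit for testing, at 0, 0 and 0.257 CPM of the library total in WT and 5.41, 3.74 and 1.74 CPM in KO. *Elf5* and *Hand1*, also defining markers, stayed at or below 0.774 CPM in all 6 libraries. The whole list of 14 genes summed to 193-200.3 CPM in WT and 545-583 CPM in KO.

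Genes of the actin, keratin and annexin cytoskeleton rose more broadly. Of 32 tested, 23 rose and 1 fell, with a median of 1.46 (0.98 in the monosome and 0.83 in the high polysome), and their summed share went from 4733-5020 to 10289-12352 CPM of the library total. *Tagln2*, an actin-binding protein, went from 390, 360.4 and 461 CPM to 1213, 2140 and 1569 CPM (1.99, SE 0.17), and *Lgals1*, a galectin, from 99.9, 83.6 and 85.6 CPM to 489, 490 and 364 CPM (2.31, SE 0.15). *Anxa3*, a calcium-dependent membrane-binding annexin, rose by 3.57 and *Anxa2* by 2.15. The keratin *Krt19* had at most 2 counts in a WT library and stood at 4.07, 4.36 and 3.51 CPM in KO. *Vim*, the intermediate filament of mesenchyme, was the member that fell (17.03, 18.9 and 13.95 against 15.0, 9.68 and 11.2 CPM). Its groups overlapped, and its call (-0.49) was lost on leaving out either of WT gradients 1 and 2 or of KO gradients 2 and 3 (-0.48 to -0.37).

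Cell adhesion genes, epithelial and other, followed the same direction, with 9 of 20 raised (45%) and 1 lowered (5%, median 0.44). Over all genes 23.4% rose and 24.3% fell. Claudins, the strand proteins of tight junctions, led them: *Cldn7* went from 25.7, 17.7 and 30.3 CPM to 109, 194 and 127 CPM (2.52, SE 0.21), *Cldn4* rose by 1.77 (SE 0.16) and *Cldn6* by 1.61. *Cdh1*, E-cadherin, rose from 1908, 1730 and 2326 CPM to 2709, 4654 and 3397 CPM (0.83, SE 0.19), and *Epcam*, an epithelial surface adhesion molecule, by 0.95. *Tjp1*, a tight junction scaffold, fell by 0.75 on the log2 scale. Matrix and basement membrane genes were divided, with 8 of 24 raised and 4 lowered (median 0.07). *Mmp14*, a membrane-bound matrix protease, rose from 19.1, 16.3 and 15.7 CPM to 92.1, 110 and 84.2 CPM, while the basement membrane components *Nid1* and *Fn1* fell by 1.48 and 1.01 on the log2 scale.

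Germline genes rose in 8 of 15 tested (53.3%) and fell in 1 (6.67%), against 23.4% and 24.3% over all genes (median 1.01). Members near 0 in WT, such as *Slc25a31* and *Taf7l*, could pass the expression limit through KO alone, which favours rises. *Mov10l1* and *Piwil2*, of the piRNA pathway that silences transposons, went from 2.82, 4.22 and 4.44 CPM to 26.9, 36.8 and 33.0 CPM (3.08, SE 0.26) and from 3.06, 1.69 and 2.79 CPM to 18.8, 15.8 and 15.3 CPM (2.71, SE 0.25). *Ddx4*, a germ cell helicase, rose by 1.74 (SE 0.30). *Slc25a31*, the testis form of the mitochondrial adenine nucleotide carrier, had at most 3 counts in a WT library and 8.66, 9.14 and 9.47 CPM in KO, and *Taf7l*, a germ cell subunit of the basal transcription machinery, at most 2 counts and 3.68, 2.18 and 2.81 CPM. *Rpl10l*, a retrogene copy of *Rpl10* used in male meiosis, went from 63.5, 72.4 and 65.1 CPM to 342, 553 and 475 CPM, though reads that fit both copies were not counted.

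Imprinted genes, expressed from 1 parental allele, rose in 10 of 22 tested and fell in 1 (median 0.61, or 0.37 without the 3 members on chromosome 6). Those 3 were *Peg10*, its neighbour *Sgce* (3.68, 3.10 and 2.79 against 25.7, 22.2 and 35.3 CPM) and *Mest* (89.3, 82.7 and 47.8 against 585, 269.6 and 555 CPM). *Igf2*, insulin-like growth factor 2, went from 15.1, 15.6 and 11.7 CPM to 81.5, 73.5 and 67.1 CPM (2.39, SE 0.21), and *Nnat* rose by 2.51. The noncoding *H19*, which shares its control region with *Igf2*, varied between the KO libraries (59.98, 22.5 and 12.8 CPM, against 2.96 to 4.53 CPM in WT), and its call (2.65, SE 0.88) was lost when any 1 WT gradient was left out (2.48 to 2.77, limma adjusted p from 0.0583 to 0.0648). *Plagl1*, an imprinted zinc finger factor, fell by 1.18 on the log2 scale.

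The core pluripotency genes did not move as a block. Of 24 tested, 6 rose (25%) and 4 fell (16.7%), against 23.4% and 24.3% over all genes, with a median of 0.06. *Pou5f1* (-0.22) and *Sox2* (-0.20), the central factors, did not pass the test. The naive factors *Tbx3* (153, 154 and 157 against 319, 319 and 280.4 CPM) and *Klf2* rose by 0.98 and 0.72. *Tcl1*, an AKT co-activator, fell from 237, 227 and 213 CPM to 66.7, 83.5 and 63.1 CPM (-1.68, SE 0.14), *Lin28a*, which blocks let-7 maturation, from 70.9, 55.3 and 65.7 CPM to 25.1, 20.9 and 19.4 CPM (-1.57, SE 0.21), and *Dppa3* from 46.8, 43.5 and 38.8 CPM to 23.8, 19.4 and 19.3 CPM (-1.06, SE 0.15, or -1.66 less the median of its chromosome 6).

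Among genes of the formative and primed epiblast, 4 of 14 rose and 2 fell (median 0.15). *Otx2*, a homeobox factor of that state, fell from 23.4, 29.2 and 35.9 CPM to 6.04, 6.0 and 4.21 CPM (-2.47, SE 0.26), and the de novo methyltransferase *Dnmt3b* from 67.4, 62.5 and 67.0 CPM to 30.1, 26.7 and 28.8 CPM (-1.20, SE 0.15). *Sox4*, another transcription factor, rose from 5.02, 8.45 and 6.98 CPM to 43.8, 45.7 and 41 CPM (2.70, SE 0.19), and *Car4* rose by 3.24. In the other marker lists few genes were expressed enough to test. In primitive endoderm 2 of 8 rose and 1 fell, in mesoderm 1 of 4 rose and 1 fell, in neural ectoderm none of 4 rose and 2 fell, among them the intermediate filament *Nes* (-1.80, SE 0.19), and among fibroblast genes 1 of 7 rose and 1 fell. Of the markers of the two-cell state only *Eif1ad* could be tested, and it did not pass (0.08).

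In the list of DDX6 and its partners in decapping and P-bodies, most genes did not pass and none rose. Of 15 tested 5 fell (33.3%) and 10 did not pass, with a median of -0.25. The 5 include the targeted gene *Ddx6* itself, which adds to that share. Over all genes 23.4% rose and 24.3% fell, so the share lowered was not far above that over all genes. *Xrn1*, the exonuclease that degrades decapped mRNA, went from 46.1, 55.8 and 74.3 CPM to 32.8, 28.2 and 33.0 CPM (-0.88, SE 0.18). *Lsm1*, of the ring that binds deadenylated 3′ ends, fell by 0.73, the decapping enzyme *Dcp2* by 0.60 and *Atxn2* by 0.51 on the log2 scale. For *Lsm1* the groups only just separated, with WT gradient 3 at 57.0 CPM and KO gradient 1 at 56.7 CPM. For *Xrn1*, *Dcp2* and *Atxn2* all 3 KO libraries lay clearly below all 3 WT libraries. The remaining members (*Lsm14a*, *Lsm14b*, *Atxn2l*, *Dcp1a*, *Dcp1b*, *Dcps*, *Edc3*, *Edc4*, *Eif4enif1* and *Patl1*) did not pass, with differences between -0.78 (*Dcp1b*, or -1.38 less the median of its chromosome 6) and 0.53.

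Of the CCR4-NOT complex and its TOB and BTG adaptors, 2 of 15 rose and 1 fell. The adaptors *Tob1* and *Tob2*, which bring the deadenylase to mRNAs, went from 34.6, 32.1 and 28.2 CPM to 85.8, 69.8 and 69.9 CPM (1.24, SE 0.15) and from 34.3, 30.6 and 33.2 CPM to 64.7, 70.9 and 70.6 CPM (1.07, SE 0.12). *Cnot3* fell by 0.47 on the log2 scale, a call lost without WT gradient 3 (-0.34) or KO gradient 3 (-0.39). In the miRNA pathway none of 12 rose and 4 fell (33.3%, median -0.31), against 23.4% and 24.3% over all genes. The median coding length of these genes was 3100.5 nt, and of all genes over 3000 nt 14.5% rose and 30.006% fell. The share lowered was therefore close to that of long genes. In the length-adjusted fit 3 of the 12 fell (median -0.28). *Tnrc6c*, a scaffold of silencing, went from 64.4, 57.3 and 70.3 CPM to 33.3, 41.9 and 38.6 CPM (-0.76, SE 0.15), and *Ago2*, the main Argonaute, from 485, 523 and 594 CPM to 378, 416 and 381 CPM (-0.44, SE 0.12). The call of *Ago3* (-0.60) was lost without any 1 gradient other than WT gradient 1 (-0.29 without WT gradient 3), and that of *Xpo5* (-0.52) with either WT gradient 2 (-0.51), WT gradient 3 (-0.32) or KO gradient 3 (-0.39) left out. In the 4-gradient fit 2 of the 12 fell. In nonsense-mediated decay, which removes mRNAs with early stop codons, 2 of 17 rose and 7 fell (median -0.37). *Upf2* and *Upf3b* fell by 0.99 and 0.98 and the kinase *Smg1* by 1.03 on the log2 scale, while *Smg8* rose by 1.136. *Smg1* lost its call in the length-adjusted fit (-0.58, limma adjusted p = 0.0518).

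The ESC-specific cell cycle regulating (ESCC) miRNAs of the miR-290 and miR-302 clusters are the main miRNAs of these cells and share a seed, and their sequences are shown because these miRNAs recognise their targets through it. In the mature sequences from RefSeq (GRCm38.p6), bases 2 to 8 from the 5′ end are in capitals.
mmu-miR-291a-3p: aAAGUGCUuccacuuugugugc
mmu-miR-294-3p: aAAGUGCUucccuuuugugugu
mmu-miR-295-3p: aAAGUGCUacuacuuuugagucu
mmu-miR-302b-3p: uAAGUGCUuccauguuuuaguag
mmu-miR-302d-3p: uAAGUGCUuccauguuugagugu
mmu-miR-290a-3p: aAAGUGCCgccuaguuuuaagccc
The first 5 share the seed AAGUGCU. In miR-290a-3p the last seed base is another one (AAGUGCC).

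An 8-base site opposite that seed (AGCACTTA, searched on the transcript strand only, as an RNA target is read) was found in the annotated 3′ UTRs (Gencode M21, GRCm38) of 5 of the 9 listed targets. The site, in capitals, is shown with its flanks on the transcript strand for 4 of them, genes that did not move alike. The other was *Mbd2*, with 1 site that is not shown here.
Cdkn1a, chr17:29100500-29100507, plus strand: gtgggtgtcaaAGCACTTAgtgggtctgac
Tgfbr2, chr9:116087771-116087778, minus strand: tcaaaacctaaAGCACTTAttttcaatcta
Lats2, chr14:57691086-57691093, minus strand: agtatggaaagAGCACTTAttttgtggata
Rbl2, chr8:91123830-91123837, plus strand: tttttcaataaAGCACTTAtaaatta
These genes moved in different directions. *Tgfbr2*, a TGF-beta receptor, went from 4.04, 3.8 and 2.54 CPM to 31.8, 24.3 and 37.2 CPM (3.17, SE 0.30), and *Cdkn1a*, the cell cycle inhibitor p21, from 477, 386 and 355 CPM to 649, 732 and 665 CPM (0.76, SE 0.13). *Lats2*, a Hippo pathway kinase, fell from 22.2, 19.997 and 15.0 CPM to 12.9, 9.68 and 10.3 CPM (-0.79, SE 0.18), and *Rbl2*, of the retinoblastoma family, did not pass (-0.33, SE 0.18). In the high polysome *Rbl2* rose by 1.24 (limma adjusted p = 3.08e-05), while *Lats2* fell by 0.78 on the log2 scale.

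Over the whole list, 4 of 9 targets rose (44.4%) and 2 fell (22.2%), against 23.4% and 24.3% over all genes. The median was 0.29 (0.21 without *Casp2*, on chromosome 6), beside 0.05 in the monosome and 0.75 in the high polysome. *Dkk1*, a secreted Wnt inhibitor with no such site, rose from 1.59, 0.986 and 0.761 CPM to 17.1, 12.3 and 15.5 CPM (3.72, SE 0.43), and *Rela*, an NF-kB subunit, by 0.82 (SE 0.14). *Ei24* fell from 306, 259 and 189 CPM to 194, 128 and 140.1 CPM (-0.71, SE 0.19), with KO gradient 1 just above WT gradient 3. *Casp2* (0.29, or -0.31 less the chromosome's median, which turns its direction) and *Mbd2* (-0.45) did not pass. Of all 11742 genes with an annotated 3′ UTR, 443 (3.77%) held the site. Of these, 115 (25.96%) rose and 95 (21.4%) fell, with a median of -0.01, against 24.98% and 22.8% and a median of 0.02 in the 11299 genes without it. A match is a description of the sequence and no evidence of binding.

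Signalling genes held some of the larger changes. Of the Wnt pathway and its targets, 13 of 23 rose and 4 fell (median 0.47). *Porcn*, the acyltransferase that Wnt secretion needs, went from 12.7, 12.3 and 15.2 CPM to 81.1, 157 and 155 CPM (3.23, SE 0.24), and the receptor *Fzd7* from 8.70, 9.15 and 11.8 CPM to 29, 42.0 and 39.6 CPM (1.89, SE 0.23). *Nkd1*, an inhibitor of the pathway, fell by 1.61 on the log2 scale. The 4-gradient fit called 11 raised and 2 lowered. The cells were grown with CHIR99021, which inhibits GSK3, in both genotypes.

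Of the Nodal, TGF-beta and BMP genes 8 of 25 rose and 4 fell (median 0.16). *Lefty2*, a Nodal antagonist, fell from 277, 259.5 and 352 CPM to 33.5, 76.5 and 75.5 CPM (-2.33, SE 0.25). *Nodal* itself rose from 177, 157 and 163 CPM to 229, 354 and 318 CPM (0.84, SE 0.14). The BMP targets *Id1* and *Id3* rose by 2.19 and 1.95, and *Id2* fell by 0.71, a call lost without KO gradient 3 (-0.53).

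ERK target genes moved in both directions, with 7 of 12 raised and 3 lowered (median 0.76). The feedback inhibitors of the Sprouty family were divided: *Spry4*, at most 4 counts in a WT library, stood at 9.45, 9.0 and 9.12 CPM in KO, while *Spry2* fell from 79.1, 88.0 and 77.9 CPM to 30.6, 27.3 and 21.2 CPM (-1.66, SE 0.16). The ETS factor *Etv4* rose by 1.90 (SE 0.20) and its relative *Etv5* fell by 1.16 (SE 0.19). In LIF, JAK and STAT3 signalling 4 of 15 rose and 1 fell (median 0.10). *Stat3* rose by 0.52 and *Ptpn11* by 0.46. *Stat3* lost its call in the 4-gradient fit (0.41, limma adjusted p = 0.0627), while the call of *Gbx2* (-1.07) was lost on leaving out either of WT gradients 1 and 3 or of KO gradients 1 and 3 (-1.09 to -0.88), and that of *Klf4* (0.39) on leaving out either of WT gradients 1 and 2 or of KO gradients 1 and 2 (0.33 to 0.35). In the 4-gradient fit 4 ERK targets and 2 LIF pathway genes rose, and 2 LIF pathway genes rose in the length-adjusted fit. Of the YAP and TEAD targets 1 of 11 rose (9.09%) and 3 fell (27.3%), the latter near the 24.3% over all genes.

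Cyclins, CDKs and mitotic genes rose in 7 of 21 (33.3%) and fell in 3 (14.3%), against 23.4% and 24.3% over all genes (median 0.17). The G1/S cyclin *Ccne1* went from 167, 151 and 186 CPM to 333, 507 and 462 CPM (1.35, SE 0.13), and *Cdk6* from 25.7, 24.8 and 24.1 CPM to 64.6, 67.7 and 70.4 CPM (1.44, SE 0.13). Of the cell cycle inhibitors 3 of 11 rose (27.3%) and none fell. *Cdkn1b*, p27, on chromosome 6, went from 28.7, 36.3 and 37.7 CPM to 103, 103 and 104 CPM (1.60, SE 0.12, or 1.0 above the chromosome's median). The 4-gradient fit called 4 cyclins and CDKs raised and 3 lowered, and 4 rose and 4 fell in the length-adjusted fit. Replication genes rose in 2 of 24 (8.33%) and fell in 5 (20.8%), led by *Orc1* (-0.91).

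p53 targets were lower more often than higher, with 2 of 24 raised (8.33%) and 10 lowered (41.7%), against 23.4% and 24.3% over all genes (median -0.35). *Trp53* itself did not pass (0.02). *Trp53i11* fell from 37, 30.7 and 26.9 CPM to 12.9, 6.96 and 7.71 CPM (-1.83, SE 0.23), the p53 inhibitor *Mdm4* from 483, 632 and 776 CPM to 242, 220.0 and 273 CPM (-1.34, SE 0.18), and *Bax*, which permeabilises mitochondria in apoptosis, from 359, 269 and 411 CPM to 141, 219.9 and 118 CPM (-1.15, SE 0.26). *Perp*, a desmosomal target, rose by 1.37 (SE 0.22), and the other raised target was *Cdkn1a*. In the apoptosis list 4 of 19 rose (21.1%) and 3 fell (15.8%). In the integrated stress response 5 of 24 rose (20.8%), 2 of them on chromosome 6, and 7 fell (29.2%). In the 4-gradient fit these counts were 2 and 3 for apoptosis and 3 and 6 for the stress response. *Atf4*, the central transcription factor of that response, went from 1574, 1572 and 1635 CPM to 531, 586 and 411 CPM (-1.66, SE 0.15, limma adjusted p = 5.06e-08). Its target *Chac1* also fell, while *Ddit3* did not pass (0.14). Other listed genes went both ways. *Pycr1* fell by 0.85 on the log2 scale, while *Slc7a5* rose, a call lost without WT gradient 3 (0.43) or KO gradient 3 (0.51) and in the 4-gradient fit (0.45).

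**Figure D3:**
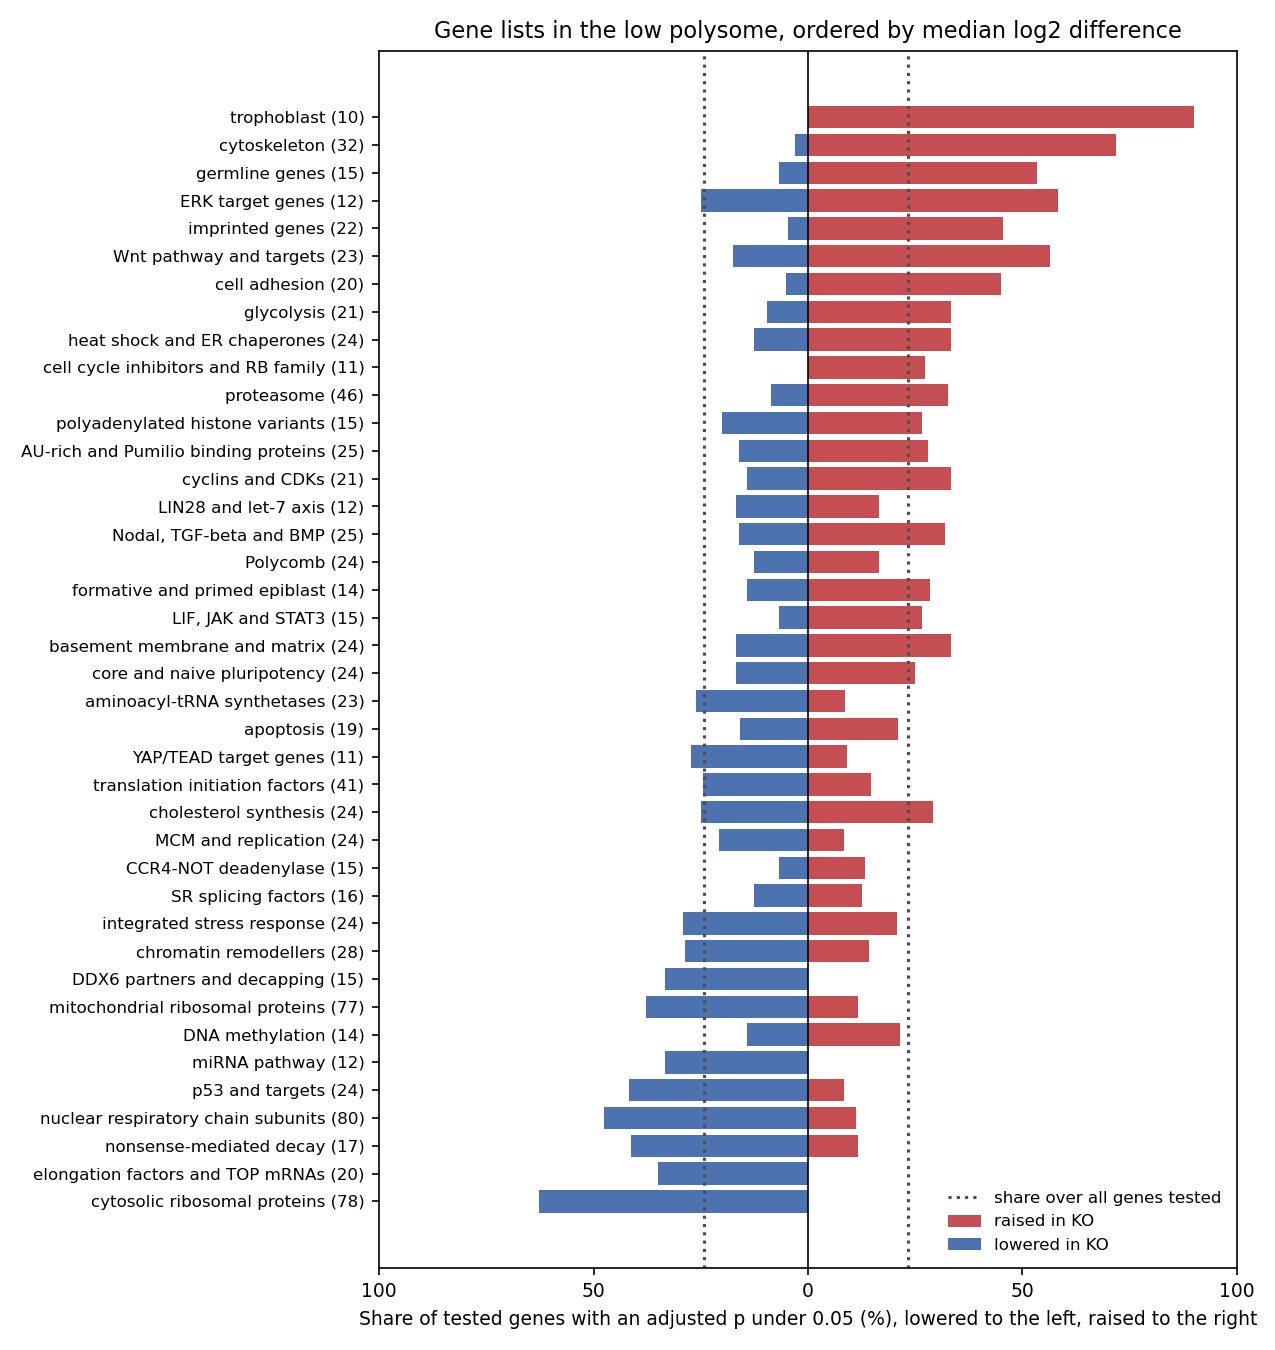
Share of the tested genes of each list (number in brackets) that rose (right) or fell (left) in the KO low polysome with an adjusted p under 0.05, for lists with more than 10 genes and the trophoblast list, ordered from the highest median difference at the top to the lowest at the bottom. The dotted lines mark the shares over all genes tested, 23.4% raised and 24.3% lowered; trophoblast and cytoskeleton genes pass the right line most, and cytosolic ribosomal proteins the left.

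Genes of the cytosolic ribosome were lower as a group. None of 78 ribosomal protein genes rose and 49 fell (62.8%), with a median of -0.59 against -0.03 over all genes (-1.02 in the monosome and -0.50 in the high polysome). Their summed share went from 43689.8-44149 CPM of the library total in WT to 25270.4-29696 CPM in KO, a ratio of 0.632. *Rpl41* went from 837, 821 and 777 CPM to 352, 318 and 296 CPM (-1.34, SE 0.16), and *Rpl39* from 602, 504 and 348 CPM to 224, 189 and 153 CPM (-1.34, SE 0.18). *Rps27l* fell by 1.5 and *Rps29* by 1.44 on the log2 scale. The groups did not overlap for 53 of the 78 genes, each lower in KO, where 26.1% of all genes were lower in this way. The median coding length of the 78 genes was 456 nt, against 1377 nt over the tested genes with one. Of all genes with up to 500 nt, 45.1% fell. In the length-adjusted fit 1 ribosomal protein gene rose and 37 fell (median -0.41). Ribosomal protein genes have many pseudogenes, and reads that map to more than 1 place were not counted.

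Elongation factors and other mRNAs with a 5′ terminal oligopyrimidine (TOP) tract, which mTOR controls together with ribosomal proteins, showed the same direction. None of 20 rose and 7 fell, with a median of -0.45 (-1.28 in the monosome and -0.08 in the high polysome). *Eef2*, the translocation factor, went from 1213, 996 and 1347 CPM to 475, 700.4 and 471 CPM (-1.13, SE 0.20), and *Pabpc1*, the poly(A)-binding protein, from 1846, 1958 and 1812 CPM to 1039, 939 and 816 CPM (-1.01, SE 0.15).

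Initiation factors were divided around a median of 0.00, with 6 of 41 raised and 10 lowered. *Eif2s2*, the beta subunit of eIF2, fell furthest, from 628, 773 and 1002 CPM to 185, 225 and 225 CPM (-1.90, SE 0.18), and *Eif3a*, the largest subunit of eIF3, by 1.21. *Eif4ebp1*, an inhibitor of eIF4E, went from 2322, 1968 and 1573 CPM to 1094, 958 and 929 CPM (-0.96, SE 0.13). The largest rise to pass was that of *Eif4g3* (0.64), lost without WT gradient 1 (0.53) or WT gradient 2 (0.55). In the 4-gradient fit 1 initiation factor rose and 10 fell. Of the aminoacyl-tRNA synthetases 2 of 23 rose and 6 fell.

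Nuclear genes of the mitochondrion fell more often than they rose. Those of the respiratory chain rose in 9 of 80 and fell in 38 (47.5%), with a median of -0.36, against 0.15 in the monosome and -0.37 in the high polysome. Their median coding length was 414 nt, and 13 of 79 rose and 19 fell in the length-adjusted fit (median -0.07). Their level relative to protein-coding genes overlapped between KO and WT (exact permutation p = 0.3). *Cox7a1*, a subunit of cytochrome oxidase, went from 363, 329 and 313 CPM to 87.7, 73.2 and 58.9 CPM (-2.21, SE 0.13), and *Cox6c* from 4022, 3806 and 3493 CPM to 1853, 1716 and 1429 CPM (-1.19, SE 0.12). The raised members included *Ndufa9* of complex I (1.53, or 0.93 above the median of its chromosome 6) and the core subunits *Uqcrc1* and *Uqcrc2* of complex III (1.07 and 1.08).

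Mitochondrial ribosomal protein genes rose in 9 of 77 and fell in 29 (median -0.26). *Mrps24* went from 670.3, 551 and 545 CPM to 155, 138 and 103 CPM (-2.17, SE 0.15), and of the 9 raised members 4 lay on chromosome 6. The 4-gradient fit called 5 raised and 26 lowered, and 10 rose and 18 fell in the length-adjusted fit. The mRNAs made inside the mitochondrion do not use cytosolic ribosomes. Of 7 tested, none rose and 6 fell (median -0.74), with *mt-Cytb* at 510.4, 748 and 603 CPM in WT and 301, 319 and 294 CPM in KO.

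Proteasome genes rose more often than they fell, with 15 of 46 raised (32.6%) and 4 lowered (8.70%), against 23.4% and 24.3% over all genes. Their median was 0.30 (0.07 in the monosome and -0.23 in the high polysome). The activator subunits *Psme1* and *Psme2* rose from 32.3, 33.9 and 38.7 CPM to 72.8, 113 and 78.7 CPM (1.31, SE 0.18) and from 6.13, 7.18 and 6.60 CPM to 19.95, 14.9 and 22.8 CPM (1.53, SE 0.25). The lid subunit *Psmd3* rose by 0.77, and the assembly chaperone *Psmg4* and the activator *Psme4* fell by 1.26 and 1.07 on the log2 scale.

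Glycolysis genes rose in 7 of 21 (33.3%) and fell in 2 (9.52%), against 23.4% and 24.3% over all genes. Of the 7 raised, 3 lay on chromosome 6, whose genes were higher as a group. The median was 0.36, or 0.23 without the 5 members on chromosome 6. The glucose transporter *Slc2a1* went from 70.3, 74.4 and 48.3 CPM to 145, 164 and 170.1 CPM (1.33, SE 0.14), and the platelet form of phosphofructokinase, *Pfkp*, fell from 150.5, 186 and 241 CPM to 41.2, 49.6 and 33.5 CPM (-2.22, SE 0.17). Heat shock proteins and chaperones of the endoplasmic reticulum rose in 8 of 24 (33.3%) and fell in 3 (12.5%, median 0.35). *Calr*, calreticulin, went from 1111, 928 and 1290.3 CPM to 1736, 3210 and 2310.2 CPM (1.09, SE 0.17), *Pdia4* (chromosome 6) rose by 1.58 (0.98 above the chromosome's median), and the mitochondrial co-chaperonin *Hspe1* fell by 1.11 on the log2 scale. In cholesterol synthesis 7 of 24 rose and 6 fell, with *Ebp* raised by 1.45 and *Insig1*, which holds SREBP in the endoplasmic reticulum, lowered by 1.05 on the log2 scale.

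**Figure D4:**
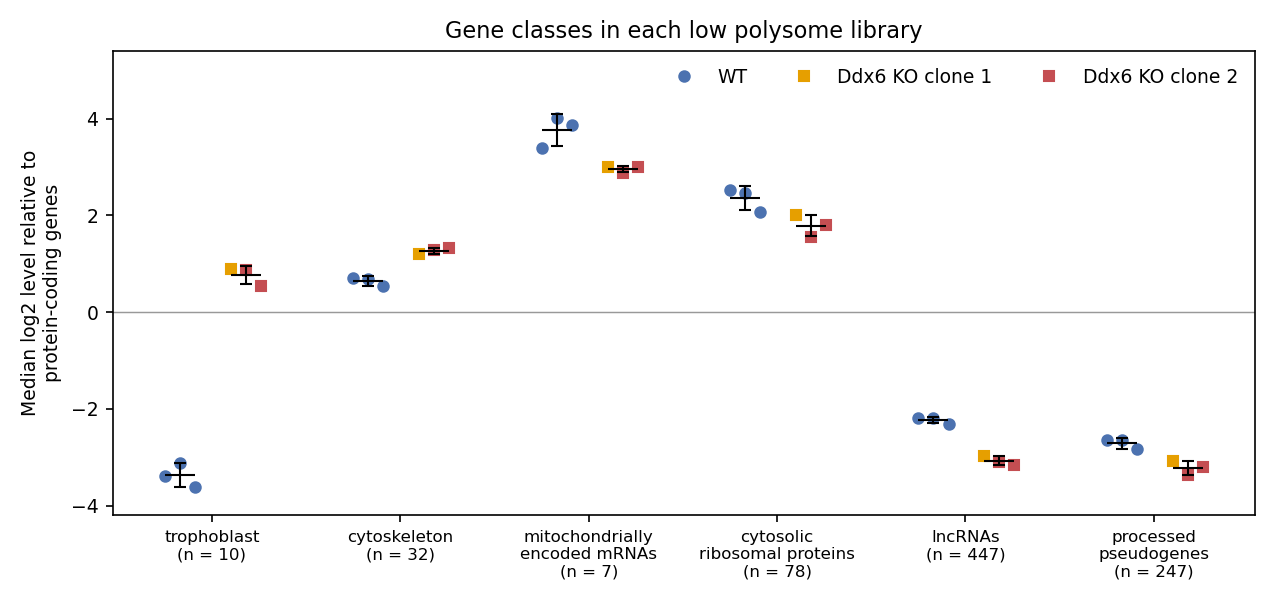
Median log2 level of 6 gene groups relative to the median of all protein-coding genes in each low polysome library (circles WT, squares KO by clone), with the mean and SD over 3 libraries in black; n is the number of genes. Trophoblast genes stand at -3.61 to -3.12 in WT and 0.55 to 0.89 in KO, lncRNAs at -2.30 to -2.19 and -3.15 to -2.97, and in each of the 6 groups KO and WT do not overlap.

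lncRNAs (by the annotation's class, processed transcripts included) were lower as a class. Of 447 tested, 24 rose (5.37%) and 234 fell (52.3%), against 23.4% and 24.3% over all genes, with a median of -0.84 (-0.60 in the monosome and -0.62 in the high polysome). Their median level relative to protein-coding genes was -2.19, -2.19 and -2.30 in WT and -2.97, -3.10 and -3.15 in KO. The groups did not overlap, and the exact permutation test gave p = 0.1, the smallest that 3 against 3 allows. Among lincRNAs, which lie between genes, 7 of 194 rose and 109 fell, and among antisense RNAs 8 of 107 rose and 53 fell. The strand setting used for counting was not given in full, so reads of an antisense RNA and its sense gene may not be told apart.

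The most abundant lncRNAs did not all follow. *Malat1*, a nuclear RNA, stood at 630.2, 935 and 1074 CPM in WT and 964, 719 and 837 CPM in KO and did not pass (-0.04). *Lncenc1*, an ESC lncRNA, fell from 257, 266 and 238 CPM to 68.1, 68.3 and 60.5 CPM (-1.95, SE 0.10). *Gas5*, a snoRNA host transcript with a TOP tract, fell from 478, 491 and 456 CPM to 212, 210.5 and 176 CPM (-1.26, SE 0.12). Processed pseudogenes rose in 3 of 247 and fell in 73 (median -0.53), and snoRNAs rose in 2 of 38 and fell in 8.

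The KO difference in the low polysome was highest for mRNAs of middle coding length. Its median was -0.39 for the 1004 genes with up to 500 nt, 0.06 for 500 to 1000 nt, 0.16 for 1000 to 1500 nt, 0.13 for 1500 to 2000 nt, 0.04 for 2000 to 3000 nt and -0.18 for the 1623 genes over 3000 nt. Of the shortest genes 112 rose (11.2%) and 453 fell (45.1%), of those with 1000 to 1500 nt 33.4% rose and 16.7% fell, and of the longest 14.5% rose and 30.006% fell. All 3 KO libraries gave this order for the shortest class (-0.23, -0.43 and -0.45) and the longest (-0.20, -0.15 and -0.18).

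In the other fractions the medians ran one way with length, from 0.17 for the shortest to -0.20 for the longest class in the monosome and from -0.39 to 0.33 in the high polysome. Across 11778 genes, which are not independent replicates, Spearman's rho of the difference with coding length was 0.01 in the low polysome, -0.20 in the monosome and 0.30 in the high polysome. Single libraries also carried such a trend: the deviation of WT gradient 3 from the WT mean had a rho of 0.33 with coding length and that of WT gradient 1 of -0.30. The relative level of the shortest class overlapped between KO and WT (exact permutation p = 0.2), while for 1000 to 1500 nt and over 3000 nt it did not (p = 0.1 each, the smallest possible).

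**Figure D5:**
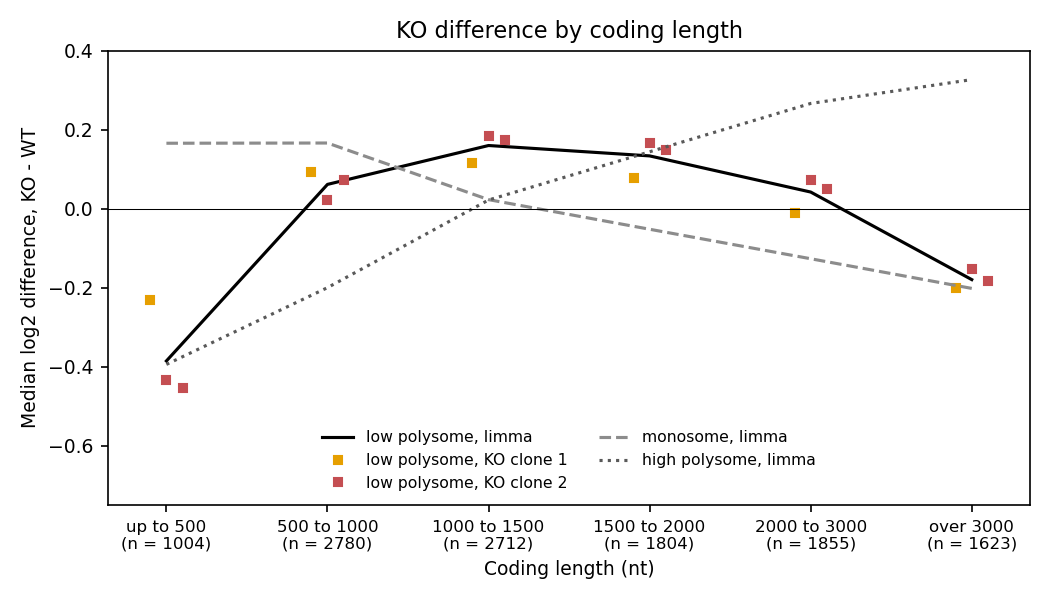
Median log2 KO minus WT difference of genes binned by coding length in nt, with the low polysome as a solid line and its 3 KO libraries as squares, the monosome dashed and the high polysome dotted; n is the number of genes per bin. The low polysome is lowest at both ends (-0.39 and -0.18) and highest at 1000 to 1500 nt (0.16), while the monosome falls and the high polysome rises with length.

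Few genes passed a test of whether the KO difference was particular to the low polysome among the fractions of the same gradients. The KO difference in the low polysome less the mean of that in the monosome and high polysome was tested for each gene, and 1 gene was raised (0.00787%) and 1 lowered (0.00787%) by limma, where 2038 genes had an unadjusted p under 0.05. The median SE of this contrast was 0.24. *Pmpca*, the alpha subunit of the mitochondrial processing peptidase, stood at 94.0, 81.1 and 81.7 CPM in WT and 157, 223 and 207 CPM in KO in the low polysome. Its difference was 1.18 there, 0.26 in the monosome and 0.02 in the high polysome, a contrast of 1.04 (SE 0.16, limma adjusted p = 0.0319).

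*Cacna1a*, a subunit of a voltage-gated calcium channel named after its values were seen, stood at 93.5, 88.0 and 88.0 CPM in WT and 51.8, 48.7 and 45.3 CPM in KO. Its difference was -0.89 in the low polysome, -0.34 in the monosome and 0.11 in the high polysome, a contrast of -0.78 (SE 0.13, limma adjusted p = 0.0465). The contrasts of *Rhox6* (1.12), *Krt18* (1.09) and *Aldh5a1* (1.23, limma adjusted p = 0.068) did not pass, nor did those of *Tmed2* (-1.13), *Pfkp* and *Dock6* (-1.10 each) and *Lsm7* (-1.09), all of which differed between KO and WT within the low polysome. The number of genes called by this contrast depended strongly on the fit. DESeq2 called 336 raised and 157 lowered, and both calls were lost without any 1 gradient other than KO gradient 1. The monosome libraries entering it were shallower in WT, at 2543617 to 4894677 counts against 7537656 to 7811071 in KO.

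The remaining lists were divided in direction. Proteins that bind AU-rich and Pumilio elements in 3′ UTRs rose in 7 of 25 and fell in 4, led by *Zfp36l1*, which promotes decay of AU-rich mRNAs (23.2, 28.7 and 18.1 against 123, 114 and 132 CPM, a difference of 2.42, SE 0.16). The 4-gradient fit called 6 raised and 2 lowered. The LIN28 and let-7 genes rose in 2 of 12 and fell in 2, with the fall of *Lin28a* beside a rise of *Lin28b* (1.16). Chromatin remodellers, whose median coding length was 7282.5 nt, rose in 4 of 28 and fell in 8 (median -0.16), and 6 rose and 4 fell in the length-adjusted fit (median 0.14). DNA methylation genes rose in 3 of 14 and fell in 2, Polycomb genes rose in 4 of 24 and fell in 3, and polyadenylated histone genes rose in 4 of 15 and fell in 3. The CCT chaperonin rose in 1 of 8 and fell in 1, and SR splicing factors rose in 2 of 16 and fell in 2.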

How the data were processed

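The authors deposited raw counts per gene, made from QuantSeq 3′ reads trimmed with cutadapt 1.14, aligned to mm10 with STAR 2.5.3a (reads with 1 location only) and counted on Gencode M14 genes with featureCounts 1.5.3. Molecular identifiers were not used, so PCR copies were counted. The 92 spike-in rows were dropped, because a low polysome library held at most 169 such reads. Genes needed 3 CPM in 3 of 18 libraries, and the 12705 kept held 99.6% of counts. Groups and gradient numbers came from the sample descriptions, whose numbering of the clone 2 gradients differs from that of the titles. limma 3.58.1 (voom, TMM of edgeR 4.0.16, R 4.3.3) was fitted to 6 group means of all 18 libraries, with contrasts in the low polysome and between it and the mean of the other fractions. edgeR, DESeq2 1.42.0, other scalings, filters and sample sets were alternatives. On simulated counts of 12705 genes with 200 changed, the low polysome contrast recovered 69% of changes of 1 and 99% of changes of 2 on the log2 scale, with 6 false calls. The simulation changed a far smaller share of genes than the 47.7% called in the data. It held no shift by chromosome or coding length, so these rates may not carry over to this comparison. Exact permutation tests were two-sided.

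Named genes were the 10 largest changes each way at 20 CPM or more with non-overlapping groups, the 4 largest changes in CPM and in the contrast with other fractions each way, up to 4 called genes per list, and all DDX6 partners and ESCC targets; others named with values were chosen after these were seen. The members and lists were chosen with earlier results of these data known. Gencode M21 gave positions, classes and coding lengths (51274 genes matched by identifier).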

Additional observations from a re-analysis of the deposited data

Results flagged for a closer look

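The KO difference of *Pmpca* was larger in the low polysome than in the other fractions, by 1.04 on the log2 scale (SE 0.16, limma adjusted p = 0.0319), and that of *Cacna1a* was more negative there, by -0.78 (SE 0.13, limma adjusted p = 0.0465). Both were singled out because the test of the difference between fractions passed. All 3 KO libraries lay above all 3 WT libraries for *Pmpca* and below them for *Cacna1a* in the low polysome. Over 16 other fits the contrast of *Pmpca* lay between 0.96 and 1.15 and passed in 9, with adjusted p from 9.49e-07 to 0.451. That of *Cacna1a* lay between -0.81 and -0.43 and passed in 8, with adjusted p from 9.12e-05 to 0.451.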

How the results depend on the processing

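The counts of genes raised (2974) and lowered (3091) stayed within 1.5 times in every alternative fit except the limit of 1 on the log2 scale, which left 1173 and 1143. Leaving out 1 gradient gave 2332-3062 raised and 2487-2878 lowered. The 2 fits chosen after seeing the data gave 2286 and 2472 (without WT gradient 3 and KO gradient 2 together) and 2720 and 2912 (without chromosomes 6 and Y). For 199 named genes, 3259 of 3360 refits kept the call, 101 did not pass, and none turned the direction. 176 of the genes passed in all of their refits. Of 816 refits of the medians of 48 lists, 693 moved by less than 1 SD over the KO gradients, and no median over 0.3 in size changed sign.

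The counts for the difference beyond the other fractions (1 raised and 1 lowered) were not stable, and the cause was not tested. They were 35 and 8 with the size factors of DESeq2 in limma, 4 and 4 with library size alone, 5 and 5 with no filter, 1 and 0 with edgeR (1025 and 1028 at an unadjusted p under 0.05), 336 and 157 with DESeq2, and 94 and 48 with the gradient as a random effect. Without chromosomes 6 and Y they were 9 and 7. Leaving out 1 gradient gave 0 to 158 raised and 0 to 48 lowered, the highest without KO gradient 1 and 0 for each of the other 5 (535-981 raised and 575-1118 lowered at an unadjusted p under 0.05). With the coding length trend removed they were 0 and 0 (824 and 642 unadjusted), as without WT gradient 3 and KO gradient 2 together (737 and 1007 unadjusted). With the limit of 1 on the log2 scale they were 1 and 0.

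With the gradient number as a replicate block, 3071 genes rose and 3196 fell in the low polysome, and 46 and 24 passed for the difference beyond other fractions. The numbers did not pair the samples, since the deviations of same-numbered low polysome libraries correlated at 0.24, -0.48 and -0.28, and not every sample correlated best with its own number.

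Values are relative to the library, clone 1 has 1 gradient, and genes with few counts have wide errors. Copies with near-identical sequence are undercounted.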

Other observations

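Gene families outside the lists above were counted by symbol, and were chosen after their values were seen. Over all genes tested, 23.4% rose and 24.3% fell. Of 219 solute carriers, which move metabolites and ions across membranes, 106 rose and 30 fell in the KO low polysome (median 0.42). *Slc38a5*, a glutamine transporter, stood at 0.245, 0.845 and 0.254 CPM in WT and at 15.4, 21.3 and 17.6 CPM in KO, and *Slc40a1*, the iron exporter ferroportin, had at most 3 counts in a WT library and 16.8, 13.2 and 8.94 CPM in KO. Lysosomal genes rose in 21 of 34 and fell in 2 (median 0.80), among them 7 of 8 cathepsins. *Psap*, the precursor of lysosomal saposins, went from 199, 235 and 197 CPM to 432, 671 and 886 CPM (1.60, SE 0.20), and *Ctsh* from 2.82, 2.53 and 1.142 CPM to 10.2, 10.4 and 8.68 CPM (2.22, SE 0.34). The 16 tested subunits of the proton pump of the lysosome, 4 of them on chromosome 6, rose in 9 cases and fell in 1. Annexins rose in 7 of 8 and S100 calcium-binding proteins in 5 of 7, and none of either family fell.

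Other families were lower. Of 244 *Zfp* zinc finger genes 15 rose and 87 fell (median -0.36), with *Zfp975* at 3.43, 4.51 and 3.04 CPM in WT and 0.263, 0.682 and 0.964 CPM in KO. Host genes of snoRNAs fell in 11 of 15 and none rose (median -1.06). *Snhg3* went from 241, 184 and 103 CPM to 59.1, 51.0 and 52.8 CPM (-1.62, SE 0.21). Sm and LSm proteins, which act in splicing and mRNA decay, fell in 10 of 19 and rose in 2. Subunits of RNA polymerase II fell in 5 of 12 and rose in 1. Import subunits of the mitochondrial membranes fell in 10 of 23 and rose in 3. In that order, their medians were -0.47, -0.47 and -0.36 in the low polysome. They were 0.06, 0.13 and 0.09 in the monosome and -0.42, -0.45 and -0.30 in the high polysome. Of all genes with up to 500 nt of coding sequence 45.1% fell, and the coding lengths of these families were not compared. Histocompatibility genes rose in 4 of 14 and fell in 6. The class II chains *H2-Eb1* and *H2-Ab1* fell by 3.78 and 2.41 on the log2 scale. *H2-Bl*, a class I gene, fell by 1.45, while the class I chains *H2-K1* (63.8, 47.9 and 47.9 against 101, 140.1 and 122 CPM) and *H2-D1* (62.4, 55.3 and 50.9 against 138, 134 and 183 CPM) rose by 1.18 and 1.42.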
